A study of Homo sapiens with 8 samples.

Results

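AKT1, AKT2, PIK3CA, PIK3R1, MTOR, RPTOR, RICTOR and TSC2 encode the core of the PI3K, AKT and mTOR pathway, and their ribosome footprints were followed through a ribosome profiling (Ribo-seq) study of OVCAR3, a human ovarian cancer cell line. The 8 genes were taken by symbol from the 20165 gene regions counted, and each matched 1 region of its own. Ribo-seq counts the pieces of mRNA that ribosomes shield from RNase. Footprint counts on a coding sequence (CDS) therefore follow both the amount of an mRNA and its load of ribosomes, which cannot be told apart without RNA-seq, which is not analysed here.

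The data comprised 8 libraries, with 2 in each of 4 groups. RACK1-WT and RACK1-Mut cells both carried a doxycycline-inducible shRNA (pTRIPZ) against endogenous RACK1, a scaffold protein of the small ribosomal subunit, and a doxycycline-inducible HA-tagged RACK1 (pInducer20). The re-expressed protein was wild type in RACK1-WT cells, and in RACK1-Mut cells it was changed at the residues that carry mono(ADP-ribose). Both were harvested 48 h after 1 µg/ml doxycycline, and both were lentivirally transduced, drug-selected cells. siControl and siTARG1 cells were unmodified OVCAR3 cells harvested 48 h after transfection with 30 nM of a control siRNA or of an siRNA against OARD1, which encodes TARG1, an enzyme that removes mono(ADP-ribose) from proteins. The 2 experiments differ in both the cells and the treatment, and these cannot be told apart from any batch of libraries, so levels in one were not tested against the other.

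PI3K is a lipid kinase made of a catalytic subunit, such as PIK3CA, and a regulatory subunit, such as PIK3R1. Its lipid product brings the kinases AKT1 and AKT2 to the membrane, where they are phosphorylated and then act on many substrates, among them TSC2. TSC2 restrains RHEB, the GTPase that activates MTOR. MTOR works in 2 complexes, mTORC1 with RPTOR, which promotes cap-dependent translation, and mTORC2 with RICTOR, which phosphorylates AKT. OVCAR3 is known for amplification of the AKT2 locus. AKT1 is the mRNA that the study placed under RACK1 modification, from these same RACK1-WT and RACK1-Mut libraries together with RNA-seq. The study's measure, translation efficiency, divides footprint RPKM by RNA-seq RPKM and was not computed here.

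Depth and identity were checked first. CDS totals ran from 3798750 to 6604190 counts in the RACK1 experiment and from 3100947 to 4207939 in the siRNA experiment. The exon share of all alignments was 48.6 to 57.2% in the first and 27.8 to 41.4% in the second. All 8 epithelial and Müllerian markers examined (PAX8, WT1, MUC16, EPCAM, KRT7, KRT8, KRT18 and KRT19) had at least 73 CDS counts in every library, while PTPRC, CD3E and ALB, markers of leukocytes, T cells and hepatocytes, had 0 to 2. The targeted genes moved as labelled in the siRNA experiment, in which OARD1 fell from 95.2 ± 36.9 to 6.29 ± 0.651 normalized counts (SD, n = 2 each; DESeq2 adjusted p 9.31e-11). RACK1 itself, whose counts pool the endogenous and the re-expressed mRNA, had 23464 ± 184 counts in the RACK1-WT group and 17510 ± 333 in the RACK1-Mut group (log2 fold change -0.42, SE 0.0601, DESeq2 adjusted p 1.34e-08). The RACK1-Mut libraries thus held both the altered protein and fewer RACK1 footprints, and these cannot be told apart in any difference below.

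The 8 genes lie on 7 chromosomes of GRCh37. AKT1 (ENSG00000142208) is at chr14:105235686-105262088 on the minus strand and AKT2 (ENSG00000105221) at chr19:40736224-40791443 on the minus strand. PIK3CA (ENSG00000121879) is at chr3:178865902-178957881 on the plus strand and PIK3R1 (ENSG00000145675) at chr5:67511568-67597649 on the plus strand. MTOR (ENSG00000198793) is at chr1:11166592-11322613 on the minus strand, RPTOR (ENSG00000141564) at chr17:78518619-78940171 on the plus strand, RICTOR (ENSG00000164327) at chr5:38938022-39074504 on the minus strand, and TSC2 (ENSG00000103197) at chr16:2097968-2139492 on the plus strand. Their counted CDS ran from 1443 nt (AKT1) and 1446 nt (AKT2) to 7650 nt (MTOR). AKT1 and TSC2 each merged 6 transcripts, PIK3R1 merged 2, and the other 5 genes had 1 transcript each.

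AKT1 and AKT2 are close paralogs, so the sequences below are shown to establish that a footprint can tell them apart. The first 30 coding bases, AKT1 at chr14:105258951-105258980 and AKT2 at chr19:40771145-40771174 (GRCh37, both minus strand), differed at 11 positions, written in capitals:
AKT1: atgaGCgaCgtgGctAtTGtGaaGgaGggT
AKT2: atgaATgaGgtgTctGtCAtCaaAgaAggC
Over the whole CDS, 1155 of 1440 aligned bases (80.2%) were identical. Of the 28-base words in the CDS, a length close to that of a footprint, 10 of 1416 in AKT1 (0.706%) also occurred in AKT2. All of them lay in a pair of identical 32-base runs, of which 30 bases each are shown because a footprint from them could have come from either gene. The first lies in 1 exon of each gene (chr14:105236690-105236721 and chr19:40739791-40739822) and the second spans an intron in both:
run near the CDS end: ccacttcccccagttctcctactcggccag
run in the middle of the CDS: agctgttcttccacctgtcccgggagcgtg
Outside these runs no 28-base footprint of one CDS matched the other. PIK3CA shared 328 of its 3180 coding words (10.3%) with an annotated pseudogene (ENSG00000233995), so part of its counts could be divided between them, since the aligner allowed many hits per read. The other 5 genes shared none. On the opposite strand, annotated exons covered 89 coding bases of MTOR (MTOR-AS1), 229 of RICTOR (OSMR), and 57 and 71 of RPTOR (2 genes without a symbol), and whether counting used strand was not stated.

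The footprint levels of the 8 genes spanned a wide range, and AKT2 stood far above the rest. Levels are given as footprints per kb of CDS after scaling each library to 1000000 CDS counts, a scale on which genes of different length can be set side by side. AKT2 averaged 205 over the 8 libraries, above 93.0% of the 12955 regions with at least 10 counts, whose median was 16.2. TSC2 (37.5, above 69.4% of regions) and AKT1 (35.98, above 68.6%) came next and MTOR lay near the median (18.8). RICTOR (13.5), PIK3R1 (12.2), PIK3CA (11.2) and RPTOR (7.56) were lower.

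**Figure D1:**
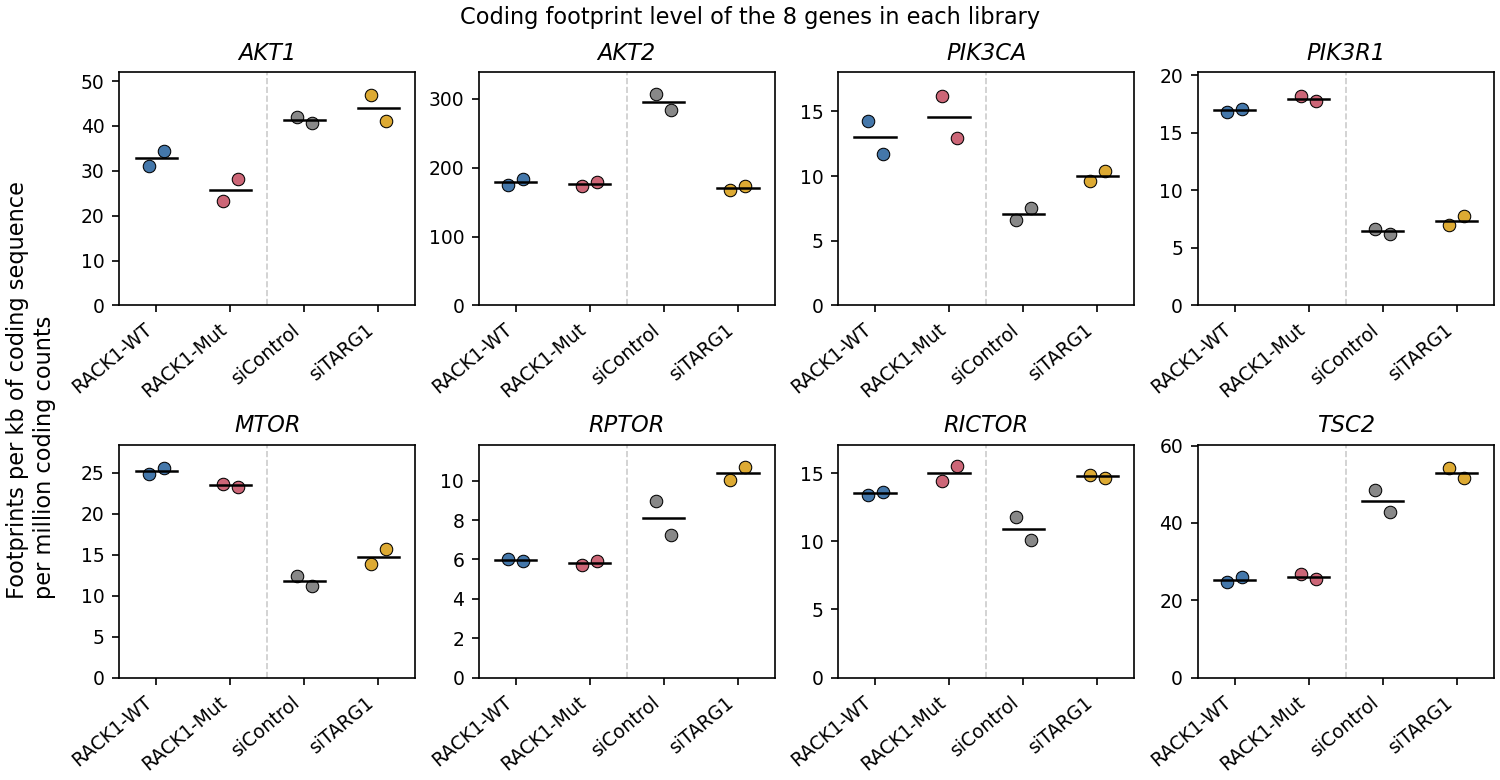
Coding footprint level (vertical axes, footprints per kb of coding sequence in a library scaled to 1000000 coding counts, each from 0) of the 8 genes in the 4 groups; each point is 1 library and each bar the mean of 2, with the RACK1 and siRNA experiments on either side of the dashed line. AKT2 was 307 and 284 in the siControl libraries and between 167 and 184 in the other 6.

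The AKT2 level was 307 and 284 in siControl and 167 and 173 in siTARG1. In RACK1-WT it was 175 and 184, and in RACK1-Mut 173 and 179. On this scale the siControl pair thus stood above all other libraries, and RACK1-WT and RACK1-Mut overlapped. The siTARG1 pair was lowest, by a narrow margin (172.8 beside 173.4 in the nearest RACK1-Mut library). For AKT1 the order was siTARG1 (46.9 and 41.2), siControl (42.0 and 40.7), RACK1-WT (31.1 and 34.5) and RACK1-Mut (23.2 and 28.3), and only siTARG1 and siControl overlapped. AKT1 thus had its lowest libraries in RACK1-Mut and AKT2 in siTARG1.

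The PI3K subunits were arranged differently. PIK3CA was 6.60 and 7.54 in siControl, 9.63 and 10.4 in siTARG1, 14.3 and 11.7 in RACK1-WT and 16.2 and 13.0 in RACK1-Mut, and the RACK1 groups overlapped. PIK3R1 was 6.67 and 6.23 in siControl, 6.99 and 7.75 in siTARG1, 16.8 and 17.1 in RACK1-WT, and 18.2 and 17.8 in RACK1-Mut, with no overlap on this scale. The catalytic and regulatory subunits thus shared one order of groups, lowest in siControl and highest in RACK1-Mut.

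MTOR was 12.4 and 11.2 in siControl, 13.8 and 15.7 in siTARG1, 24.9 and 25.6 in RACK1-WT and 23.6 and 23.3 in RACK1-Mut, and no 2 groups overlapped. RPTOR, the mTORC1 scaffold, ran the other way between experiments, at 8.95 and 7.24 in siControl, 10.0 and 10.7 in siTARG1, 6.01 and 5.90 in RACK1-WT and 5.74 and 5.91 in RACK1-Mut. RICTOR, the mTORC2 scaffold, was 11.8 and 10.1 in siControl, 14.9 and 14.6 in siTARG1, 13.4 and 13.6 in RACK1-WT and 14.4 and 15.6 in RACK1-Mut. Its siControl libraries were the lowest and its RACK1-Mut and siTARG1 libraries overlapped. TSC2 was 48.6 and 42.9 in siControl, 54.3 and 51.5 in siTARG1, 24.7 and 25.9 in RACK1-WT and 26.8 and 25.4 in RACK1-Mut, so that it was high in both siRNA groups. The order of groups for every one of the 8 genes was the same with exon totals as the denominator. With the deposited RPKM, which divides by all alignments, the order changed for AKT1, AKT2, MTOR, RPTOR and RICTOR. For AKT1 it became RACK1-WT, RACK1-Mut, siControl and siTARG1, from high to low. For AKT2, siControl replicate 2 (75.8) then lay below every RACK1-WT and RACK1-Mut library (80.2 to 94.1).

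Ratios of levels within a library do not depend on its total. The AKT2 level was 7.30 and 6.98 times that of AKT1 in siControl and 3.57 and 4.20 times in siTARG1. It was 5.65 and 5.33 times that of AKT1 in RACK1-WT and 7.46 and 6.32 times in RACK1-Mut. AKT2 thus made up 87.7% ± 0.346 (SD, n = 2) of the summed AKT1 and AKT2 level in siControl, 79.4% ± 1.88 in siTARG1, 84.6% ± 0.537 in RACK1-WT and 87.3% ± 1.30 in RACK1-Mut, and was the larger part of that sum in all 8 libraries. The summed level was 336 ± 17.1 in siControl and 214 ± 0.151 in siTARG1, and 212 ± 8.20 in RACK1-WT and 202 ± 7.33 in RACK1-Mut. RICTOR over RPTOR was 1.32 and 1.39 in siControl, 1.48 and 1.37 in siTARG1, 2.23 and 2.31 in RACK1-WT and 2.52 and 2.63 in RACK1-Mut. The siRNA groups overlapped in this ratio and both RACK1 groups lay above them. PIK3R1 over PIK3CA was 0.918 ± 0.131 in siControl, 0.735 ± 0.0130 in siTARG1, 1.32 ± 0.194 in RACK1-WT and 1.25 ± 0.177 in RACK1-Mut.

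**Figure D2:**
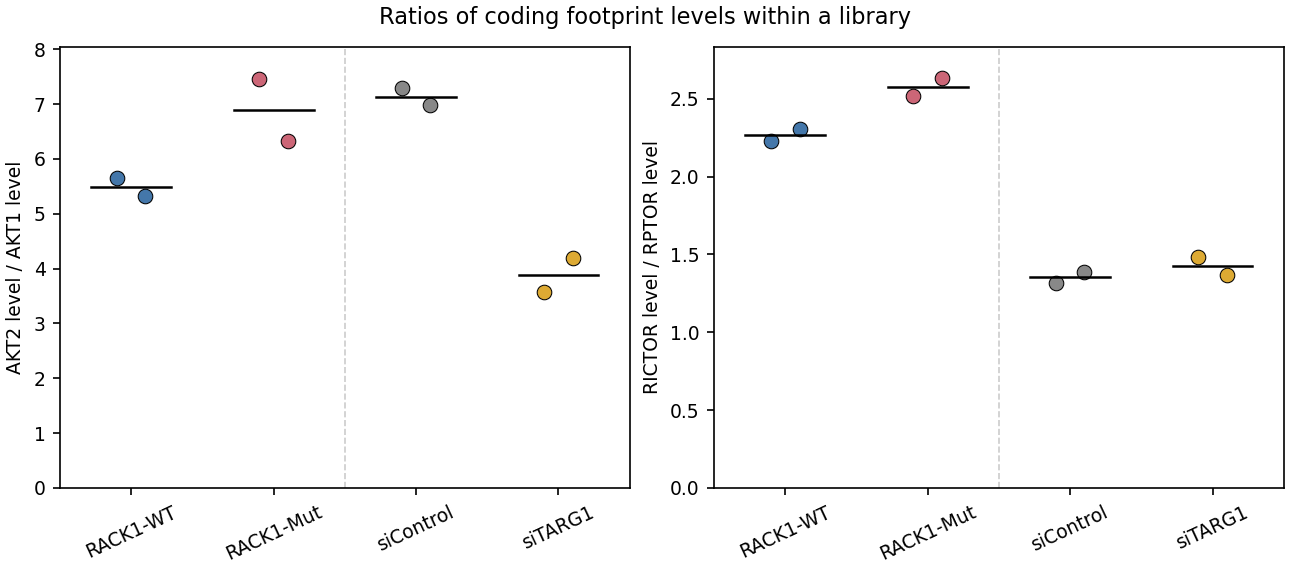
Ratio of the AKT2 to the AKT1 level (left) and of the RICTOR to the RPTOR level (right), both without unit and with axes from 0; each point is 1 library and each bar the mean of 2. AKT2 over AKT1 was 7.30 and 6.98 in siControl and 3.57 and 4.20 in siTARG1.

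The comparison of RACK1-Mut with RACK1-WT asks which footprints depend on the modifiable residues of RACK1. None of the 8 genes was called, that is, none had a DESeq2 adjusted p under 0.05 over the 12520 genes tested, of which 0.0799% were called (10 genes, all lower). AKT1 had the smallest p of the 8. It had 228.8 and 250.8 normalized counts in RACK1-WT, and 167.0 and 204.3 in RACK1-Mut, and the groups did not overlap. The log2 fold change was -0.37 (SE 0.187, 95% interval -0.74 to -0.0045), which corresponds to 0.773 of the RACK1-WT level, with an unadjusted DESeq2 p of 0.0473 and an adjusted p of 1. edgeR gave an unadjusted p of 0.00385 and an adjusted p of 0.328, so AKT1 was not called by it either. Because the study singled out AKT1 on these samples, the direction of this difference is not independent evidence. In the same libraries RACK1 footprints were lower, as given above, and their part in the AKT1 value was not tested.

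The paralog AKT2 was measured with more counts. It had 1295 and 1339 normalized counts in RACK1-WT and 1249 and 1295 in RACK1-Mut (log2 fold change -0.05, SE 0.0905, 95% interval -0.23 to 0.13, DESeq2 adjusted p 1). The interval excluded a fall as large as the point estimate for AKT1. Whether AKT1 and AKT2 differed from each other in response was not tested.

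The other 6 genes lay between -0.13 and 0.14 on the log2 scale. MTOR had 972 and 989 normalized counts in RACK1-WT and 901 and 894 in RACK1-Mut (log2 fold change -0.13, 95% interval -0.32 to 0.07). RICTOR had 350.9 and 352 in RACK1-WT and 369 and 399 in RACK1-Mut (0.13, 95% interval -0.15 to 0.41). Neither group pair overlapped, yet both intervals included 0. PIK3R1 (0.06, 95% interval -0.31 to 0.43), TSC2 (0.02, -0.19 to 0.24), PIK3CA (0.14, -0.23 to 0.52) and RPTOR (-0.06, -0.51 to 0.40) had intervals on both sides of 0. Both libraries of RACK1-Mut lay below both of RACK1-WT for 4 genes (AKT1, AKT2, MTOR and RPTOR) and above for 2 (PIK3R1 and RICTOR). For AKT2 the nearest libraries of the groups were equal to the precision given, and on the level scale AKT2 and RPTOR overlapped. Such separation was seen for 37.6% of all genes tested, 18.9% lower and 18.7% higher.

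The comparison of siTARG1 with siControl addresses the opposite case, in which an enzyme that removes the modification is depleted. RACK1 footprints were lower here as well, from 12674 ± 501 to 10652 ± 870 normalized counts (log2 fold change -0.25, SE 0.0688, DESeq2 adjusted p 0.00297). Their part in the values below was not tested. AKT2 was the 1 gene of the 8 that was called, in a comparison in which 16.4% of the 12056 genes tested were called, 9.19% lower and 7.18% higher. In the siControl group AKT2 had 1639 and 1516 normalized counts, and in the siTARG1 group 847 and 884. Both siTARG1 libraries thus lay far below both siControl libraries. The log2 fold change was -0.87 (SE 0.0970, 95% interval -1.06 to -0.68, DESeq2 adjusted p 4.47e-17), so AKT2 fell to 0.548 of its siControl value. With edgeR the adjusted p was 1.97e-10.

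AKT1 had 224 and 217 normalized counts in siControl and 237 and 210.3 in siTARG1 (log2 fold change 0.02, SE 0.192, 95% interval -0.35 to 0.40, DESeq2 adjusted p 0.963). Its groups overlapped, and the interval did not reach the value of AKT2. RICTOR had 223 and 191 in siControl and 267 and 265 in siTARG1 (0.36, SE 0.189, 95% interval -0.01 to 0.73, DESeq2 adjusted p 0.196). edgeR called RICTOR higher at an adjusted p of 0.0462, so the call for RICTOR rests on the tool. The value for MTOR was 0.25 (95% interval -0.06 to 0.56, DESeq2 adjusted p 0.316), from 350 and 317 to 370.4 and 424 normalized counts. RPTOR, with 133 and 107 against 141 and 152, differed by 0.28 (95% interval -0.21 to 0.76, DESeq2 adjusted p 0.518). All 3 mTOR components lay above their controls in both libraries without passing the DESeq2 test.

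PIK3CA had 78.2 and 89.4 normalized counts in siControl and 108 and 118 in siTARG1 (log2 fold change 0.44, SE 0.283, 95% interval -0.12 to 0.99, DESeq2 adjusted p 0.326). It had the highest point estimate of the 8 from 75 to 130 counts per library, and it is the gene that shares words with a pseudogene. PIK3R1, with 42 to 64 counts per library, gave 0.12 (95% interval -0.62 to 0.85). TSC2, with 721 to 1239, gave 0.14 (95% interval -0.07 to 0.35). The interval of PIK3R1 was thus the widest of the 8, and a doubling of PIK3R1 lay outside it. Apart from AKT2, all 7 genes had a value above 0, and the median of the 8 was 0.19 beside 0.0031 for all genes tested. Libraries separated upward for 5 genes (PIK3CA, MTOR, RPTOR, RICTOR and TSC2) and downward for AKT2, a separation seen for 62.6% of all genes tested, 31.2% higher and 31.4% lower.

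**Figure D3:**
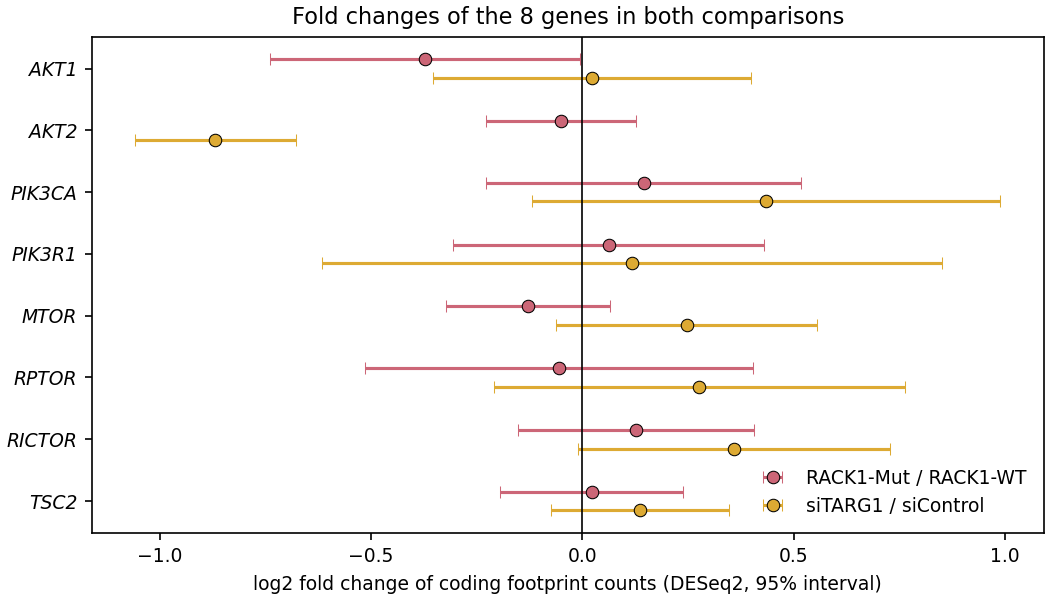
Log2 fold change of coding footprint counts (horizontal axis; DESeq2, bars are 95% intervals) for the 8 genes in RACK1-Mut against RACK1-WT and in siTARG1 against siControl. AKT2 in siTARG1, at -0.87, is the value whose interval lies farthest from 0, and AKT1 in RACK1-Mut, at -0.37, has an interval that ends just below 0.

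The difference between the 2 comparisons was tested over all 8 libraries. For AKT2 the siTARG1 log2 fold change was lower than the RACK1-Mut one by -0.81 (SE 0.119, DESeq2 adjusted p 6.56e-10), and it was the 1 gene of the 8 called, beside 12.3% of 12955 genes (6.91% lower and 5.43% higher). For AKT1 the difference was 0.40 (SE 0.244, unadjusted p 0.0989, DESeq2 adjusted p 0.304), so a response to RACK1-Mut distinct from that to siTARG1 was not called. For MTOR it was 0.38 (DESeq2 unadjusted p 0.0179, adjusted p 0.0962), and edgeR called it at an adjusted p of 0.0329. AKT1 and AKT2 thus gave point estimates of opposite sign in this test, and the call was for AKT2.

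Footprints in 5′ UTRs, where ribosomes on upstream reading frames are found, were the second readout. Summed over the 8 libraries, PIK3R1 had 168 of its 1171 5′ UTR and CDS counts in the 5′ UTR (14.3%, 95% Wilson interval 12.5 to 16.5%), AKT1 202 of 2009 (10.1%, 8.82 to 11.4%) and AKT2 947 of 11231 (8.43%, 7.93 to 8.96%). These intervals cover counting error only. The median over 12711 regions was 1.59%, and PIK3R1, AKT1 and AKT2 lay above 91.7%, 86.6% and 83.5% of them. RPTOR had 3.99%, PIK3CA 1.80%, TSC2 0.525% and MTOR 0.130%. RICTOR had 0 of 2468, which allows a share of up to 0.122%. None of these shares is corrected for the length of the 5′ UTR. As counts per base, the 5′ UTR over CDS density had group means of 0.0623 to 0.0910 for AKT1. For AKT2 they were 0.401 to 0.497 and for PIK3R1 0.308 to 0.654, so AKT1 stood below both by this measure. The AKT1 density divides by a merged 5′ UTR of 2153 nt, whereas single AKT1 transcripts in the annotation examined below had 152 to 1481 nt. How far the place of AKT1 below AKT2 and PIK3R1 rests on that merged length was not tested.

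The 5′ UTRs themselves differed in length and in upstream ATGs. The counted 5′ UTR was 2153 nt for AKT1, which merged several alternative first exons, 669 nt for TSC2, 620 nt for PIK3R1, 362 nt for RPTOR, 299 nt for AKT2, 157 nt for PIK3CA, 77 nt for MTOR and 31 nt for RICTOR. In GENCODE 44 transcripts of the same genes, PIK3R1 held 5 upstream ATGs, RPTOR 6, AKT2 and PIK3CA 2 each, and MTOR and RICTOR 0. AKT1 held 0 to 20 and TSC2 0 to 1, depending on the transcript. The 5′ UTRs of these transcripts differed in length from those counted. They had 792 nt for RPTOR, 323 nt for PIK3CA, 121 nt for MTOR and 68 to 110 nt for TSC2. An upstream ATG may therefore lie outside the region that was counted. At least 1 upstream ATG occurred in 46.4% of 18702 regions with a 5′ UTR. An upstream ATG in the annotation is not evidence that it was used.

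**Figure D4:**
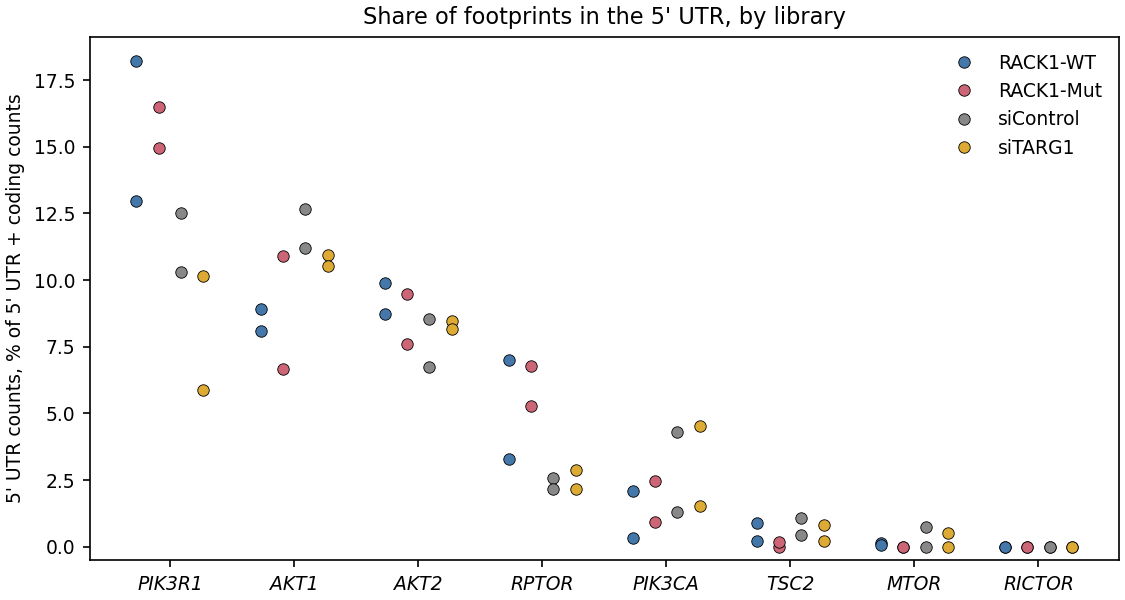
Share of footprints in the 5′ UTR (vertical axis, 5′ UTR counts as a percentage of 5′ UTR plus coding counts) for the 8 genes, with 1 point per library coloured by group. PIK3R1, AKT1 and AKT2 lie between 5.88 and 18.2% in every library, and RICTOR is at 0 throughout.

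No 5′ UTR count or ratio of 5′ UTR to CDS counts was called for any of the 6 genes with at least 10 counts (MTOR and RICTOR were not tested). The DESeq2 filter on mean counts left PIK3CA, PIK3R1, RPTOR and TSC2 without an adjusted p for 5′ UTR counts in siTARG1. These genes could therefore not be called in that fit. The filter left 3596 of its 5455 5′ UTRs without an adjusted p, and they count as not called below. Over all genes, DESeq2 called 0% of 6257 5′ UTRs in RACK1-Mut (16 at an unadjusted p under 0.05) and 0.458% of 5455 in siTARG1 (0.422% lower and 0.0367% higher). It called 0% of the 6116 and 0% of the 5334 ratios (35 and 102 at an unadjusted p under 0.05). AKT1 had 29 and 27 5′ UTR counts in RACK1-WT and 10 and 19 in RACK1-Mut. Its 5′ UTR share was 8.92 and 8.08% in the former and 6.67 and 10.9% in the latter, and the groups overlapped. The log2 ratio of 5′ UTR to CDS counts differed by 0.04 with a 95% interval from -1.28 to 1.37. A doubling or a halving of the ratio was thus not excluded by this fit. Its intervals were wide at high counts too, as for RACK1 in siTARG1 (-1.19 to 0.87). The 5′ UTR of TSC2, at 8 and 2 counts in RACK1-WT and 0 and 1 in RACK1-Mut, gave the largest point estimate (-2.63, 95% interval -6.75 to 1.49), which rested on 11 counts.

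AKT2 gave the best measured 5′ UTR of the 8. It had 135 and 119 5′ UTR counts in siControl and 94 and 70 in siTARG1, or 119 and 142 against 78.2 and 78.7 after normalization. The log2 fold change of the 5′ UTR was -0.73 (SE 0.271, unadjusted p 0.0074, DESeq2 adjusted p 0.177), beside -0.87 for the CDS. The share of AKT2 footprints in the 5′ UTR was 6.75 and 8.56% in siControl and 8.45 and 8.18% in siTARG1, and the log2 ratio of 5′ UTR to CDS differed by 0.14 (95% interval -0.96 to 1.24). The 5′ UTR value thus had the sign of the CDS value without passing its own test.

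Other genes of the pathway were examined as a list of 78 with a region of their own, of which 75 had enough counts. In RACK1-Mut none of the 75 was called (DESeq2; background 0.0799%), and their median log2 fold change was 0.0035, beside -0.0017 for all genes. In siTARG1 13 were called higher, 4 lower and 58 not, which is 22.7% of the list beside 16.4% of all genes, with a median of -0.04. With edgeR 11 were called lower in place of 4.

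Among PI3K subunits other than PIK3CA and PIK3R1, which were not called, 4 of 6 were called higher in siTARG1 and none lower, beside 7.18% of all genes called higher. PIK3CD, the delta catalytic subunit, went from 31.0 ± 3.39 to 87.2 ± 5.55 normalized counts (log2 fold change 1.48, SE 0.375, DESeq2 adjusted p 0.00104), and in the RACK1 libraries its level was higher still, at 12.3 to 12.8 beside 2.47 to 2.88 in siControl and 7.58 to 8.21 in siTARG1. The class II kinases PIK3C2B (1.25, DESeq2 adjusted p 0.00486) and PIK3C2A (0.67, adjusted p 2.59e-04) and PIK3R4, the regulatory partner of PIK3C3 (0.46, adjusted p 0.00953), were the other 3. None of the 5 lipid and AKT phosphatases and none of the 9 AKT substrates tested was called.

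Around MTOR the calls went both ways. TELO2 (0.72, DESeq2 adjusted p 0.0256) and TTI1 (0.51, adjusted p 0.0167), chaperone cofactors that stabilize MTOR and related kinases, rose. DEPTOR, an inhibitor bound to both complexes, fell from 82.6 ± 29.8 to 24.4 ± 0.425 normalized counts (-1.75, SE 0.422, adjusted p 5.18e-04). RHEB, the GTPase held in check by TSC2, rose from 290.4 ± 28.0 to 485 ± 4.33 (0.74, SE 0.152, adjusted p 3.04e-05), and so did DDIT4 (0.73, adjusted p 4.86e-04), an inducible activator of the TSC complex. PRKAA1, a catalytic subunit of AMPK, fell from 554 ± 21.9 to 265 ± 1.09 (-1.07, SE 0.147, adjusted p 2.86e-11). Of 25 nutrient-sensing genes, the leucine sensor SESN2 (1.26, adjusted p 6.01e-05) and SEH1L (0.50, adjusted p 0.00327) rose, LAMTOR2 fell (-0.43, adjusted p 0.0156) and 22 were not called. These genes act in opposite directions on mTORC1, and the list as a whole had no common sign.

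Of 14 outputs of the complexes, EIF4EBP1, the repressor of eIF4E that mTORC1 inactivates, had 838 and 522 CDS counts in siControl and 206 and 147 in siTARG1. It fell from 679 ± 80.8 to 168 ± 4.35 normalized counts (log2 fold change -2.01, SE 0.159, DESeq2 adjusted p 5.97e-34), the largest fall on the list. PDCD4, an inhibitor of the helicase eIF4A (0.88, adjusted p 5.54e-08), EIF4B, a cofactor of that helicase (0.55, adjusted p 1.13e-05), and the autophagy kinase ULK1 (0.65, adjusted p 0.0220) rose. In RACK1-Mut EIF4EBP1 gave 0.0035 (SE 0.115) and PRKAA1 0.00057 (SE 0.109).

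**Figure D5:**
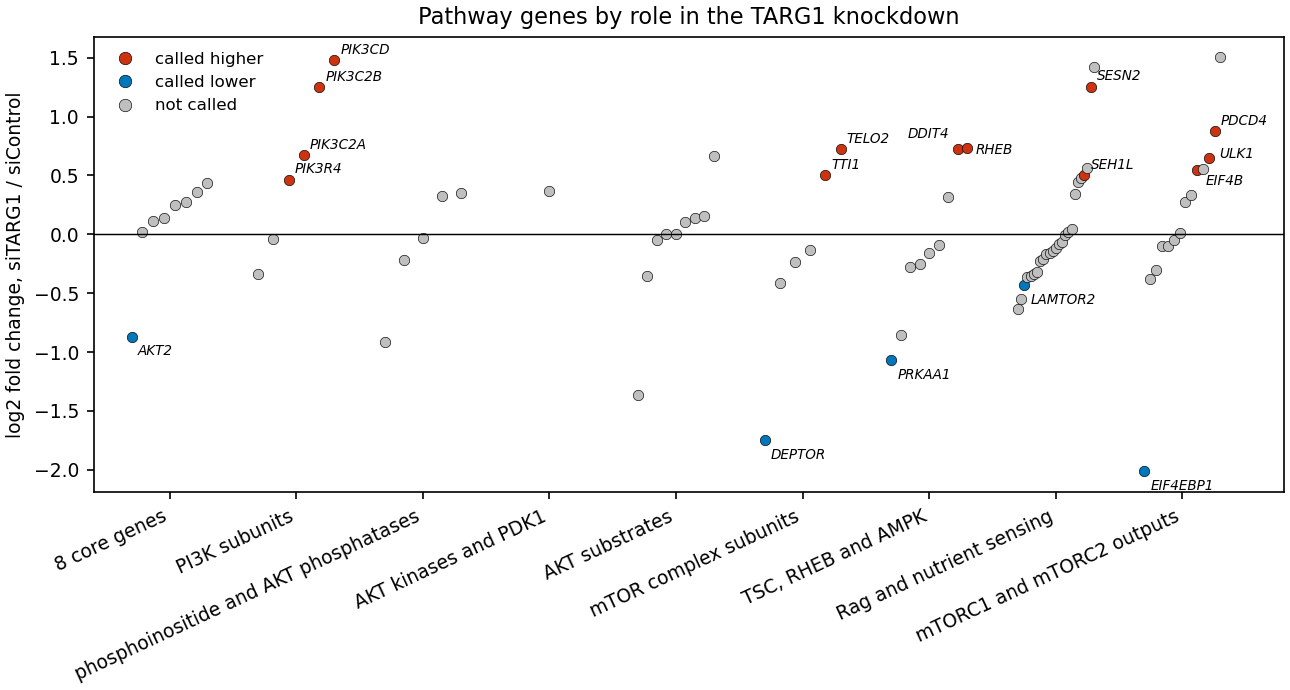
Log2 fold change of coding footprint counts in siTARG1 against siControl (vertical axis) for the 8 core genes and 75 other pathway genes, grouped by role; each point is 1 gene, sorted within its group, and the called genes are named. AKT2 (-0.87), PRKAA1 (-1.07), DEPTOR (-1.75), LAMTOR2 (-0.43) and EIF4EBP1 (-2.01) were called lower.

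The 3′ UTRs were read for 2 sequences that had marked the genes called in siTARG1 in an earlier look at these data. Their excess among called genes was thus built in by that choice and is not independent evidence. The called and not called genes were also not matched for 3′ UTR length. AKT2 held 1 copy of TGAACAT, a 7-base word of TGAACATA, at bases 1045 to 1051 of its 3555 nt 3′ UTR (chr19:40738728-40738734, minus strand), shown in capitals within 30 bases because AKT2 was the gene called:
AKT2 3′ UTR: agccttaaggtTGAACATgagtgcacgtcc
Either 7-base word of TGAACATA (TGAACAT or GAACATA, mRNA strand only, overlapping matches counted) occurred in 37.3% of the 3′ UTRs of genes called lower in siTARG1, in 14.1% of those called higher and in 16.9% of those not called. Among 1446 genes with a 3′ UTR of similar length to that of AKT2 it occurred in 35.8%. PIK3CA and PIK3R1 also held 1 copy each and were not called, and AKT1, MTOR, RPTOR, RICTOR and TSC2 held none. Of the 4 other pathway genes called lower, PRKAA1 held one, and DEPTOR, LAMTOR2 and EIF4EBP1 did not. It also occurred in 1 of the 13 called higher (PDCD4) and in 15 of 57 that were not called. The words of TGAATATA (TGAATAT or GAATATA), found in 46.7% of genes called higher, 24.03% of those called lower, 23.1% of those not called and 49.2% of those with a 3′ UTR about as long as that of AKT2, occurred 6 times in PIK3CA, 3 times in PIK3R1 and once in MTOR, none of which was called, and not in AKT2. Which siRNA against TARG1 was used is not given in the sources used here, and the part of these words in the AKT2 result was not tested.

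The genes whose normalized CDS counts most resembled those of AKT1 were HSPB1, a small heat shock protein (Pearson r 0.962), and TIMM50, a subunit of the mitochondrial import machinery (0.949). The likeness was measured over the 8 libraries on log2 values centred within each experiment, among 6717 genes with a mean of at least 100 normalized counts, and the points share library depth and composition. Both values were picked as the highest of those 6717, so their size is partly a result of that choice. The other 7 core genes gave r from -0.47 (PIK3CA) to 0.27 (MTOR), and AKT2 gave 0.03. MTOR, the nearest of the core genes to AKT1 by this measure, ranked 1511 of the 6717.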

How the data were processed

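The 8 deposited tables hold whole-number footprint counts and RPKM for the exons, 5′ UTR, CDS and 3′ UTR of merged transcripts. The authors trimmed linkers, molecular identifiers and barcodes, removed rRNA reads with Bowtie 1.1.2, aligned to a GENCODE 24 transcriptome on GRCh37 with TopHat2 2.1.1 and counted with Plastid. Whether identifiers were used to collapse duplicates is not given in the sources used here. Per the file headers, reads of 26 to 36 nt were counted at an offset of 14 nt from the 5′ end, whereas the study's methods count from the 3′ end. According to the methods, replicates were independent biological samples.

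Symbols came from GENCODE 44 and matched 19612 of 20165 regions. Deposited counts were tested with DESeq2 1.42.0 (R 4.3.3), as in the study's methods, for genes with at least 10 counts over a fit, without a replicate block; 5′ UTR counts used the CDS size factors, and the ratio of 5′ UTR to CDS was the region by group term. A call is a Benjamini-Hochberg adjusted p under 0.05. edgeR adjusted over all genes tested, and DESeq2 over those that passed its own filter on mean counts. The filter left 935 of 12056 genes (siTARG1 CDS), 3596 of 5455 (siTARG1 5′ UTR) and 2010 of 12955 (difference) without an adjusted p. These genes stayed in the totals given and count as not called. The deposited RPKM served as an alternative for levels. edgeR 4.0.16, TMM scaling, other filters, exon counts and fits without each library were also tried. The DESeq2 fits of CDS counts, 5′ UTR counts, their ratio and the difference between comparisons were tested on simulated data. So were the edgeR fits of CDS and 5′ UTR counts, and the other alternatives were not. At 1 log2 unit DESeq2 recovered 92% (RACK1-Mut) and 84% (siTARG1) of CDS changes, but 11% and 19% of 5′ UTR changes. At 0.5 it recovered 29% and 28% of CDS changes. Of ratio changes of 2 log2 units it recovered 64.5% and 61.5%, so a missing call does not exclude a change. Changes were simulated only in genes above a limit of mean counts, and PIK3CA and PIK3R1 CDS in siTARG1 lay below it. So did the 5′ UTRs of PIK3CA, RPTOR and TSC2, and that of PIK3R1 in siTARG1. The recovery rates do not cover these. The core genes, the pathway list and the 3′ UTR words were chosen with earlier results of these data known. Named genes are the core genes, RACK1, OARD1, the pathway genes called, up to 4 per role by adjusted p, and the 3 genes most like AKT1, of which 1 is not reported here.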

Additional observations from a re-analysis of the deposited data

How the results depend on the processing

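AKT2 was called lower in siTARG1 in every alternative and in every fit without 1 library, with values from -0.93 to -0.82, and AKT1 in RACK1-Mut was called in none, with values from -0.52 to -0.23 without 1 library. With edgeR the genes called were 30 in place of 10 in RACK1-Mut, 3470 in place of 1974 in siTARG1, 2695 in place of 1598 for the difference between comparisons and 100 in place of 25 for 5′ UTRs in siTARG1. It called 2 core genes in place of 1 in siTARG1 (RICTOR added) and 2 in place of 1 for the difference (MTOR added), called 11 pathway genes lower in place of 4, and gave -0.024 for the 5′ UTR to CDS ratio of PIK3CA in siTARG1. The labels tie the replicate numbers to no shared batch, and deviations of same-numbered libraries correlated at 0.0832 and 0.0307 across genes. Same-numbered siRNA libraries were alike in CDS total (4207939 and 4207861, and 3100947 and 3145173), and whether they share a batch was not tested. With the replicate block 6, 1125, 878 and 3 genes were called in those same 4 fits, AKT2 was called in siTARG1 (adjusted p 2.50e-10), and the unadjusted p of AKT1 in RACK1-Mut was 0.12.

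Of 48 log2 values of the core genes, 20 changed sign in at least 1 fit without a library, none of them called, and their ranges over those fits follow. For the CDS they were -0.068 to 0.11 for AKT1 in siTARG1 (sign turned without siControl replicate 2 or siTARG1 replicate 1), and, in RACK1-Mut, -0.024 to 0.30 for PIK3CA and -0.014 to 0.056 for TSC2. The difference between comparisons ran from -0.025 to 0.14 for PIK3R1. For 5′ UTRs in RACK1-Mut they were -0.90 to 0.17 for AKT1, -0.40 to 0.0048 for AKT2, -0.099 to 1.12 for PIK3CA, -0.20 to 0.39 for PIK3R1 and -0.31 to 0.87 for RPTOR, and in siTARG1 -0.996 to 0.023 for PIK3R1 and -1.62 to 0.28 for TSC2. For the ratio in RACK1-Mut they were -0.38 to 0.40 for AKT1, -0.32 to 0.034 for AKT2, -0.41 to 1.18 for PIK3CA, -0.26 to 0.32 for PIK3R1 and -0.23 to 0.91 for RPTOR, and in siTARG1 -0.045 to 0.33 for AKT2, -0.61 to 0.73 for PIK3CA, -0.024 to 0.26 for RPTOR and -1.67 to 0.22 for TSC2. The causes were not tested. The pathway medians ran from -0.019 to 0.035 in RACK1-Mut and from -0.052 to 0.026 in siTARG1.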
